A study of Mus musculus with 6 samples.

Results

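Voltage-gated calcium and sodium channels are built from subunits of 6 gene subfamilies, and 40 of the 55421 genes in the deposited tables carry the symbol of such a subunit. They were chosen by symbol alone, with no measured value: 10 calcium α1 genes (Cacna1), 4 α2δ genes (Cacna2d), 4 calcium β genes (Cacnb), 8 γ genes (Cacng), 10 sodium α genes (Scn with the ending a) and 4 sodium β genes (Scn with the ending b). Their RNA was measured in the cerebral cortex of C57BL/6J male mice of wild-type genotype on a standard diet, 3 of 6 months (mice 10, 11 and 17) and 3 of 24 months (mice 2, 4 and 5), all under isoflurane before death. The study asked how gene expression of the cortex differs between young adult and old mice. Each mouse gave 1 library from 10 ng of total RNA, so n = 3 separate animals per age throughout.

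In both channel types the large α subunit forms the pore, senses the membrane voltage and sets the kind of current. Sodium channels open first and carry the rising phase of the action potential, whereas calcium channels turn the depolarization into calcium entry that releases transmitter, shapes firing and regulates genes. The other subunits bind the pore subunit and govern its delivery to the membrane, its gating and its anchoring, and most γ proteins of the brain instead escort AMPA-type glutamate receptors.

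The deposited counts summed to 29495379 to 36494240 per library. The 24-month libraries held more counts on the genes of olfactory and vomeronasal receptors, best known from the sensory neurons of the nose. The summed density over 1403 such genes was 0.0145 to 0.0177 CPM (counts relative to the library's total) per exonic kb at 6 months and 0.047 to 0.087 at 24 months, and whether these counts stem from transcripts of those genes was not tested. Levels are given as the authors' TPM (a share of all transcripts, corrected for gene length), and differences as log2 fold changes of 24 against 6 months from the counts, scaled by TMM (a factor per library that assumes most genes do not differ). A false discovery rate (FDR) of 10% was used to call genes, by edgeR's quasi-likelihood test over 32905 genes with at least 10 counts in all, since the study's 1% passed 0.0% of them (0 genes; 10096 had an unadjusted p under 0.05, and edgeR's likelihood ratio test, its exact test and DESeq2 called 1703, 1122 and 227). CPM of single genes was likewise scaled by TMM, also for the level of 1 CPM, except where library totals are named. All 40 subunit genes were tested, 33 of them with a mean of at least 1 CPM and 7 below it.

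Neighbouring sodium α genes are alike in sequence, so reads of one could fit another. Of the 69-base windows of the Scn3a transcripts, 4.40% also occurred in another gene, against 3.46% in Scn2a, 3.11% in Scn9a, 2.33% in Scn1a and 0 in Scn8a.

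The promoter was read as the 250 bases before the RefSeq start (GRCm38.p6). Those of Cacna2d1 and Scn2a are shown, since both fell with age and their promoters lie at opposite ends of base composition. Capitals mark the GC box GGGCGG on either strand (CCGCCC on the strand printed where the box is on the other), with overlaps counted.
Cacna2d1, chr5:15934441-15934690, plus strand: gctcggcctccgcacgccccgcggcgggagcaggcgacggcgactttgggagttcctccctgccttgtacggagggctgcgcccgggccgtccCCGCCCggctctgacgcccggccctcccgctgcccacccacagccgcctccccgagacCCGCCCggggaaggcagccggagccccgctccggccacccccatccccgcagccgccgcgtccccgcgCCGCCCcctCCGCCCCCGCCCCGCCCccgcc
Scn2a, chr2:65620519-65620768, plus strand: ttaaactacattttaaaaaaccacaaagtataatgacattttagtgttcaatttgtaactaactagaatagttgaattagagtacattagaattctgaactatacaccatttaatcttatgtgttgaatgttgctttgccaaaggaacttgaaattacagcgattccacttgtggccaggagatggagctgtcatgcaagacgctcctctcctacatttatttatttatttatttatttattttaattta

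The Cacna2d1 window was 82.4% G and C with 6 GC boxes, and the Scn2a window 29.6% with 0. These were the highest and the lowest share among the 30 subunit genes found in the promoter table, whose whole held a median of 52.4%. Of those 30, 12 had at least 1 GC box, against 32.7% of all 32851 promoters of that length. The letters CCAAT stood in 8 of the 30 (33.8% of all promoters) and TATAAA in 1 (12.4%). Such matches describe the letters only.

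At the level of single genes, 5 of the 33 subunit genes above 1 CPM fell with age and 0 rose. They were Scn3a and Scn2a, pore subunits of neuronal sodium channels, Scn3b, a sodium β subunit, Cacna2d1, the main α2δ subunit and a target of gabapentin, and Cacnb1, a calcium β subunit. Scn3a fell by 32.0%, Scn3b fell by 31.1%, Cacna2d1 fell by 28.6%, Scn2a fell by 25.9% and Cacnb1 fell by 23.5%. Among all 15761 genes above 1 CPM, 17.3% fell and 2.43% rose by the same test, so the 5 of 33 lie close to the background of the cortex as a whole. At an unadjusted p under 0.05, 8 of the 33 were lower and 0 higher, against 26.9% and 4.23% of all genes above 1 CPM, and edgeR's likelihood ratio and exact tests and DESeq2 each called Scn7a, the atypical α subunit that senses sodium, as well.

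Several of the genes lie side by side in GRCm38 (GENCODE vM21): Scn3a (chr2:65457118-65567627, minus strand), Scn2a (chr2:65620771-65767447, plus strand), Scn1a, Scn9a and Scn7a follow one another on chromosome 2. Scn3b (chr9:40269217-40291618, plus strand) is on chromosome 9, Cacna2d1 (chr5:15934691-16374511, plus strand) on chromosome 5 and Cacnb1 (chr11:98001508-98023034, minus strand) on chromosome 11.

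Scn3a, the sodium channel α subunit best known from embryonic brain, lay at 88.27, 83.61 and 76.66 CPM in the 6-month mice 10, 11 and 17 and at 52.85, 55.0 and 61.27 CPM in the 24-month mice 2, 4 and 5. The ages did not overlap, and the gap between them was wider than the range at either age. Its log2 fold change was -0.56 (SE 0.10, adjusted p = 0.0518, edgeR's quasi-likelihood test), from 82.9 ± 5.84 to 56.4 ± 4.37 CPM (SD, n = 3).

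Scn3b, which encodes a β subunit held to the pore without a disulfide bond, had 129.2, 127.7 and 119.9 CPM in mice 10, 11 and 17 and 97.35, 83.7 and 78.61 CPM in mice 2, 4 and 5. All old mice were below all young ones. The log2 fold change was -0.54 (SE 0.10, adjusted p = 0.0518, edgeR's quasi-likelihood test).

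Cacna2d1 encodes the extracellular subunit that brings calcium channels to the membrane and binds gabapentin. Its levels were 312.1, 299.5 and 318.0 CPM in the young mice 10, 11 and 17 and 207.1, 204.4 and 251.9 CPM in the old mice 2, 4 and 5. The highest old mouse, mouse 5, was still below the lowest young one. Its log2 fold change was -0.49 (SE 0.10, adjusted p = 0.0518, edgeR's quasi-likelihood test).

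Scn2a encodes the sodium channel of excitatory axons and dendrites. It gave 638.0, 539.7 and 520.3 CPM in mice 10, 11 and 17 and 384.6, 416.6 and 457.1 CPM in mice 2, 4 and 5, again without overlap, although mouse 10 stood above the other young mice. The log2 fold change was -0.43 (SE 0.11, adjusted p = 0.0564, edgeR's quasi-likelihood test).

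Cacnb1, a cytoplasmic β subunit that masks a retention signal of the pore subunit, had 188.4, 169.2 and 175.5 CPM in the young mice and 134.3, 138.8 and 134.7 CPM in the old mice 2, 4 and 5. The old mice lay close together (SD 2.47 CPM) and apart from the young. The log2 fold change was -0.39 (SE 0.09, adjusted p = 0.0526, edgeR's quasi-likelihood test).

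**Figure D1:**
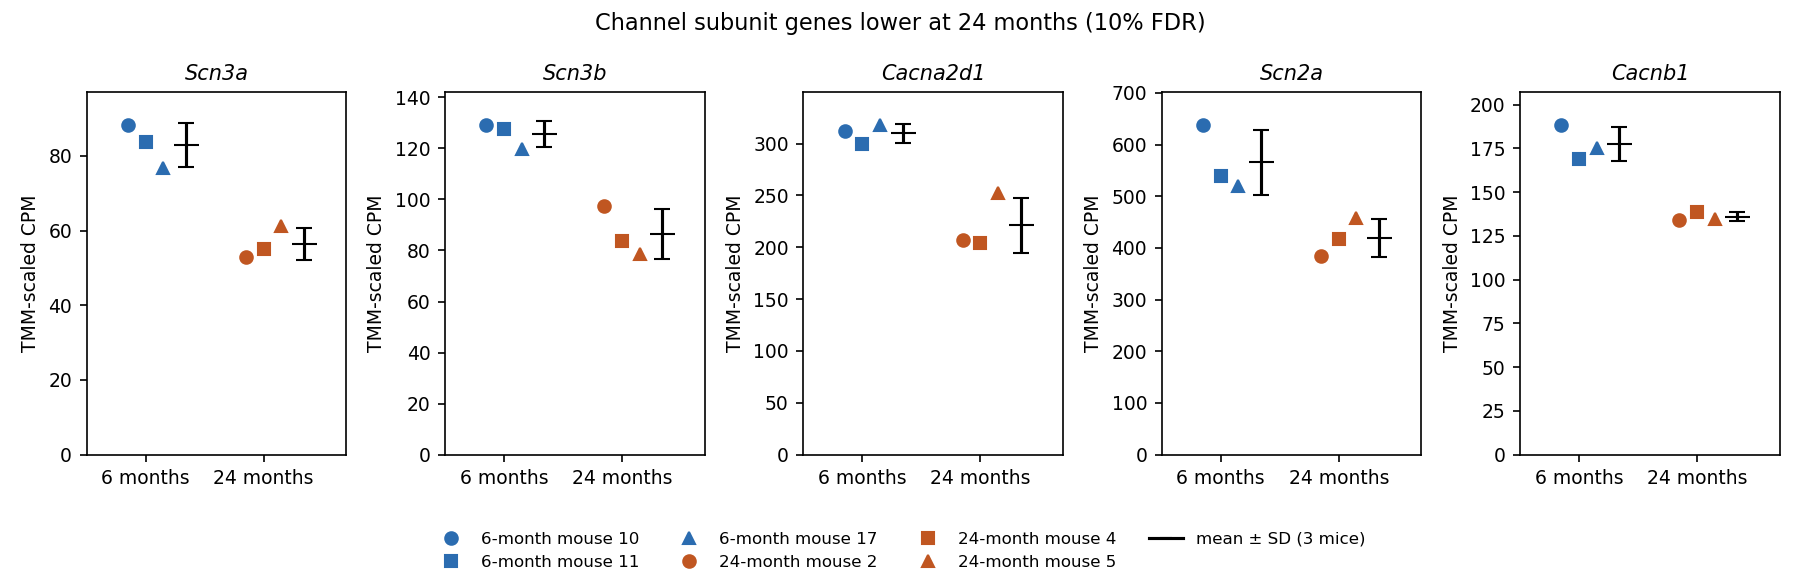
TMM-scaled CPM of the 5 subunit genes that fell at 10% FDR, 1 panel per gene, with 1 point per mouse and the mean ± SD of 3 mice beside each age, on axes from 0. In each panel all 24-month mice lie below all 6-month mice, and mouse 5 is the highest old mouse for Scn3a, Cacna2d1 and Scn2a.

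The size of these falls depended on the scaling. All genes tested had a median log2 fold change of 0.15 and those above 1 CPM one of -0.14. Scaling by library totals moved these medians to 0.33 and 0.05, and the calls over all genes from 3299 higher and 2742 lower to 4113 higher and 323 lower. Relative to the median of genes above 1 CPM, the differences were -0.41 for Scn3a, -0.39 for Scn3b, -0.34 for Cacna2d1, -0.29 for Scn2a and -0.24 for Cacnb1. Scn3a, Scn3b and Cacna2d1 were called in 8 of 11 other settings, library totals among them (log2 fold changes of -0.37, -0.34 and -0.30), whereas Scn2a and Cacnb1 were called in 5 of 11 and were lost with library totals. In the authors' TPM, all 5 genes were also lower in every old mouse than in every young one. The count rested on single mice, as did that over all genes. Leaving out the young mouse 10, the young mouse 11 or the old mouse 4 gave 0 lower subunit genes and 0 lower genes in all. Leaving out the old mouse 2 gave 1 (Scn3b) and 104 in all, leaving out the young mouse 17 gave 5 and 1252, and leaving out the old mouse 5 gave 9 and 3633. The log2 fold changes themselves lay between -0.62 and -0.50 for Scn3a, -0.62 and -0.47 for Scn3b, -0.59 and -0.39 for Cacna2d1, -0.49 and -0.34 for Scn2a and -0.39 and -0.34 for Cacnb1 with 1 mouse left out in turn. With mouse 5 left out, Scn1a (-0.67), Scn8a (-0.56), Cacnb4 (-0.36) and Scn4b (-0.90, named after its values were seen) were lower as well.

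Markers of cell types were read beside these genes. Summed TPM of 12 neuron markers was 5532 to 6474 at 6 months and 4530 to 5915 at 24 months, which overlap, and 2 of the 12 fell, near the 17.3% of genes above 1 CPM that fell (log2 fold changes of -0.45 for Stmn2 and -0.40 for Syt1). The 7 astrocyte markers summed to 2878 to 3068 TPM against 3327 to 3476, and the 6 microglia markers to 562.8 to 571.5 against 601.5 to 639.7, so that both were higher in every old mouse. No marker of these lists was at 0 in all libraries, and the part of cell composition in the channel results was not tested. In bulk tissue, fewer cells of a type and less RNA per cell cannot be told apart.

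Base composition moved with the difference too. The 8 subunit genes above 1 CPM with under 47% G and C in their transcripts had a median log2 fold change of -0.38, the 9 with 47% to 52% one of -0.17 and the 16 with more one of -0.03. All genes above 1 CPM ran the same way over a narrower range (-0.19, -0.16 and -0.09). Of the genes that fell, Cacna2d1 (40.7%), Scn3a (42.1%) and Scn2a (43.4%) were in the first class, Scn3b (47.8%) in the second and Cacnb1 (59.7%) in the third. The part of base composition was not tested.

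Beyond the called genes, the subfamilies differed in how their members lay. Medians below are over members above 1 CPM and carry no test. They were -0.38 for the 6 sodium α genes, -0.21 for the 4 calcium β genes, -0.11 for the 4 α2δ and the 7 γ genes, -0.02 for the 8 calcium α1 genes and 0.03 for the 4 sodium β genes, against -0.14 over all genes above 1 CPM. With library totals they became -0.19, -0.02, 0.07, 0.07, 0.17 and 0.22, so only the sodium α and calcium β medians were below 0 under both scalings, and of these the calcium β median barely so. With 1 mouse left out in turn, the medians lay between -0.59 (without mouse 5) and -0.33 for sodium α, between -0.30 and -0.14 (without mouse 11) for calcium β and between -0.22 (without mouse 2) and -0.05 (without mouse 17) for γ. Those of α2δ (-0.30 without mouse 10 to 0.02 without mouse 11 or 2), calcium α1 (-0.06 without mouse 2 to 0.08 without mouse 4) and sodium β (-0.05 without mouse 5 to 0.19 without mouse 2) changed sign. In TMM-scaled CPM, the old mice lay below all young mice for 8 of the 33 genes, against 32.5% of all genes above 1 CPM. Among the 8 were Cacna1e, Cacna1i and Cacng6, which were not called. The old mice lay above all young mice for 0 of the 33, against 5.32%. In TPM these counts were 6 and 2, against 17.3% and 10.0%.

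**Figure D2:**
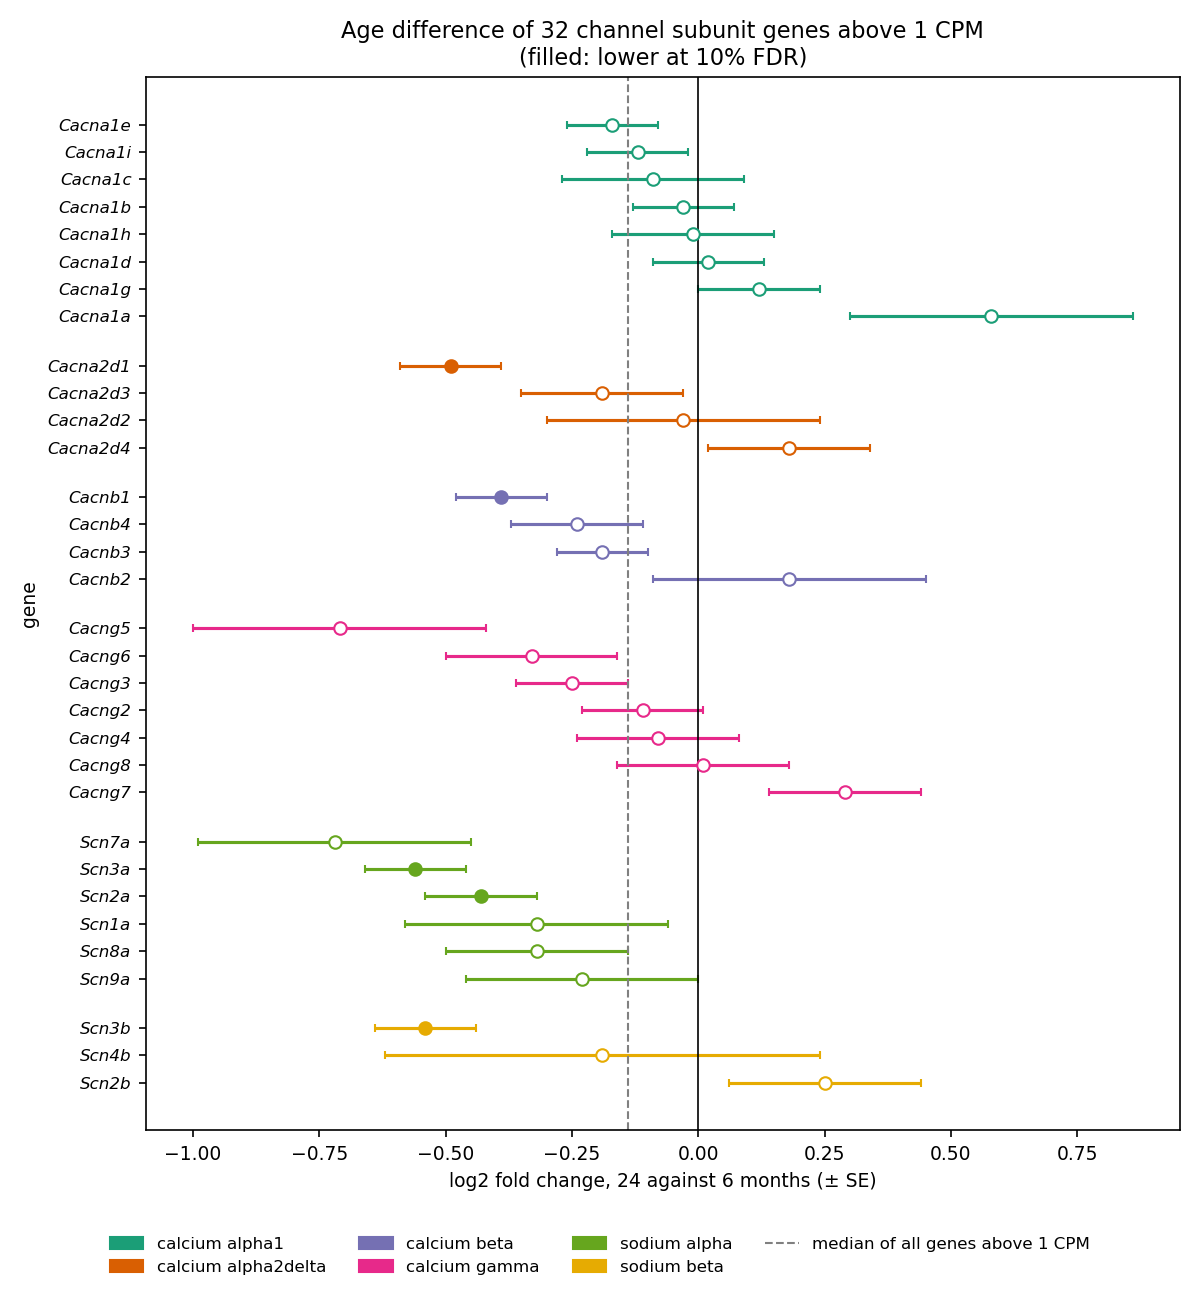
Log2 fold change of 24 against 6 months (x axis, ± SE from edgeR's quasi-likelihood fit) of 32 subunit genes above 1 CPM (y axis), grouped and coloured by subfamily. Filled points are the 5 genes that fell at 10% FDR, the dashed line is the median of all genes above 1 CPM, and the 6 sodium α genes all lie left of 0.

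The sodium α genes set the mix of fast sodium channels. Of those above 1 CPM, all 6 were fitted lower at 24 months, between -0.72 and -0.23, but 4 of them did not pass the test. By TPM, Scn2a was the most abundant (156.4 ± 16.5 at 6 months and 125.4 ± 10.8 at 24 months, SD, n = 3). Scn1a, the channel of inhibitory interneurons, and Scn8a, that of the axon initial segment and nodes, followed with 73.7 ± 10.8 and 65.0 ± 7.51 TPM at 6 months, within each other's spread. Scn3a (22.9 ± 1.54 TPM) stood below them and above the sodium sensor Scn7a (7.68 ± 3.02 TPM), which was low in the 6-month mouse 11 at 4.288 TPM against 10.07 and 8.665 in mice 10 and 17. Scn9a, a channel of pain neurons, was present at 0.764 TPM over the 6 mice.

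Scn1a had 84.49, 73.73 and 62.87 TPM in mice 10, 11 and 17 and 37.02, 63.28 and 91.27 TPM in mice 2, 4 and 5. The old mice spanned the whole range of the young and beyond it on both sides, and the log2 fold change of -0.32 (SE 0.26) did not pass the test. Scn8a was alike, with 58.38, 73.17 and 63.47 TPM at 6 months and 44.15, 50.83 and 74.43 TPM at 24 months and a log2 fold change of -0.32 (SE 0.18). Both were lowest in mouse 2 and highest in mouse 5. Pvalb, a marker of the fast-spiking interneurons that carry much Scn1a, had the same order among the old mice. It had 81.89, 171.5 and 248.3 TPM in mice 2, 4 and 5. Of the other interneuron markers, Erbb4 had this order too. Sst (825.7, 671.6 and 712.6 TPM), Vip (57.54, 49.05 and 40.83 TPM), Npy and Lhx6 did not. The summed TPM of the 6 oligodendrocyte markers had this order (800.3, 1898 and 2484 in mice 2, 4 and 5). The part of these cell types in the spread was not tested.

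The make-up of the sodium α genes was alike at both ages. Scn2a held 47.8% ± 1.8 at 6 months and 47.2% ± 5.3 at 24 months, Scn1a 22.5% ± 1.5 and 23.0% ± 5.6, Scn8a 20.0% ± 3.1 and 20.7% ± 1.7, and Scn3a 7.01% ± 0.14 and 6.36% ± 0.80 (SD, n = 3). The ages overlapped for each of the 4. The sum itself was 353.5, 326.3 and 301.4 TPM in mice 10, 11 and 17 and 220.1, 261.6 and 327.5 TPM in mice 2, 4 and 5, so that mouse 5 lay among the young mice.

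Sodium β subunits tune the gating of the pore and join it to adhesion molecules, and they were the most abundant channel transcripts. Scn2b, whose product is bound by a disulfide bridge, had the highest mean TPM of all 40 genes (423.9, rank 335 of all genes). Its values of 487.1, 273.5 and 349.0 TPM at 6 months and 535.5, 490.6 and 407.5 at 24 months overlapped, with a log2 fold change of 0.25 (SE 0.19).

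Scn4b, whose product drives resurgent current in fast-firing neurons, ran from 12.84 TPM in mouse 2 to 65.71 TPM in mouse 5, a span that enclosed all 3 young mice (46.07, 37.98 and 32.76 TPM).

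Scn3b, described above in CPM, had 82.66, 82.79 and 77.36 TPM in the young and 67.92, 58.33 and 54.78 TPM in the old mice. Every old mouse was below every young one on this scale too.

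**Figure D3:**
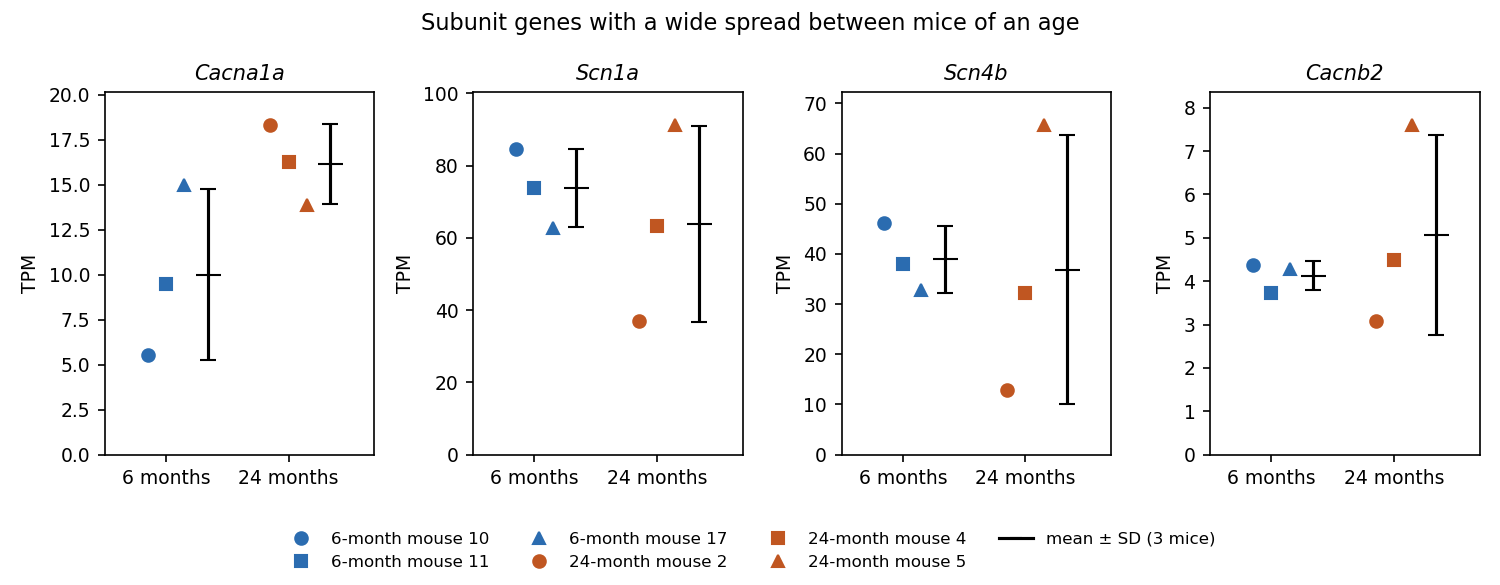
TPM of Cacna1a, Scn1a, Scn4b and Cacnb2, chosen after their values were seen for a wide spread between mice of an age, with 1 point per mouse and the mean ± SD of 3 mice. Mouse 17 is the highest young mouse for Cacna1a, and mouse 2 is lowest and mouse 5 highest of all mice for Scn1a, Scn4b and Cacnb2.

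Calcium α1 genes name the current types. In the cortex the N-type gene Cacna1b (18.43 TPM over the 6 mice), the R-type gene Cacna1e (14.57 TPM) and the P/Q-type gene Cacna1a (13.08 TPM) led, the channels that release transmitter at synapses. Among the T-type genes, which fire bursts near rest, Cacna1i reached 10.32, Cacna1g 8.133 and Cacna1h 5.46 TPM. At 6 months alone, Cacna1a (10.0 ± 4.76 TPM) did not stand above Cacna1i (10.33 ± 0.504 TPM, SD, n = 3). The L-type genes, which couple activity to transcription, had 6.068 TPM (Cacna1d) and 4.297 TPM (Cacna1c).

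None of these 8 α1 genes passed edgeR's quasi-likelihood test, and an unadjusted p under 0.05 was found for 0 of them. Cacna1b, the most abundant, had 17.77, 17.45 and 18.51 TPM at 6 months and 19.24, 17.2 and 20.39 TPM at 24 months and a log2 fold change of -0.03 (SE 0.10). Cacna1a was the most variable: 5.515, 9.509 and 14.99 TPM in mice 10, 11 and 17 against 18.32, 16.27 and 13.85 TPM in mice 2, 4 and 5. Only the young mouse 17 overlapped with the old mice, the log2 fold change was 0.58 (SE 0.28, adjusted p = 0.192, edgeR's quasi-likelihood test), and without mouse 17 it was 0.99 and passed.

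Cacna1e had a log2 fold change of -0.17 (SE 0.09) with TMM scaling and 0.02 with library totals. Its share of the summed α1 TPM was 20.2%, 20.1% and 18.4% in the young mice 10, 11 and 17 and 16.0%, 16.9% and 17.3% in the old, without overlap. Shares in a sum depend on one another, and that of Cacna1a was 12.8% ± 4.8 at 6 months and 18.8% ± 2.0 at 24 months, in which the ages overlapped. Summed α1 TPM overlapped, at 68.46 to 84.61 and 81.44 to 91.78.

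Of the α2δ genes, Cacna2d1 provided most transcripts (77.82 TPM over the 6 mice), ahead of Cacna2d3 with 26.27, Cacna2d2 with 6.504 and Cacna2d4 with 1.752 TPM. Beside the fall of Cacna2d1, Cacna2d3 had -0.19 (SE 0.16) and Cacna2d2, the other gabapentin-binding subunit, -0.03 (SE 0.27) on the log2 scale. Cacna2d2 differed widely between young mice (4.136, 8.448 and 6.376 TPM in mice 10, 11 and 17). The share of Cacna2d1 in the 4 genes was 76.7%, 70.5% and 68.1% in the young and 67.3%, 65.3% and 66.9% in the old mice, all old mice being lower, though mice 17 and 2 were less than 1 point apart.

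The calcium β genes were led by Cacnb3 (253.5 TPM), followed by Cacnb1 with 126.2, Cacnb4 with 88.17 and Cacnb2 with 4.592 TPM. Cacnb3 had 244.6, 267.4 and 267.3 TPM at 6 months and 269.2, 229.6 and 242.5 at 24 months, which overlap (log2 fold change -0.19, SE 0.09, and 0.01 with library totals). Cacnb4, mutated in the lethargic mouse, had 86.7, 97.26 and 91.92 TPM against 67.45, 86.64 and 99.04, again overlapping. Cacnb2, the β subunit of heart channels, had 4.37, 3.735 and 4.278 TPM against 3.089, 4.482 and 7.601. A noncoding gene on the other strand, A430018G15Rik, covers 16.0% of the exons of Cacnb4, and without strand the reads of the shared bases cannot be told apart. A430018G15Rik had 130 counts over all libraries together, against 5149 to 8505 per library for Cacnb4. The shares of Cacnb1 in the β sum, 28.0% ± 2.0 and 25.4% ± 1.1, overlapped between the ages.

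Among the γ genes, the AMPA receptor escorts Cacng3 (286.2 TPM), Cacng2, known as stargazin (71.74 TPM), and Cacng8 (22.94 TPM) stood above the rest. Cacng3 had 312.2, 275.5 and 311.6 TPM at 6 months and 307.8, 262.6 and 247.6 TPM at 24 months, which overlap, and its log2 fold change of -0.25 (SE 0.11, adjusted p = 0.147, edgeR's quasi-likelihood test) did not pass. Cacng2 had -0.11 (SE 0.12, and 0.07 with library totals) and Cacng8 0.01 (SE 0.17). Cacng7, an escort of the second type, took 1.78%, 2.14% and 2.20% of the γ sum in the young and 2.33%, 3.11% and 3.25% in the old mice. It was higher in each old mouse and was called with library totals (log2 fold change 0.48) and with TMM factors from genes above 1 CPM (0.44) but not with TMM over all genes tested, and it is named here after its values were seen. The escort Cacng4 (10.37 TPM) and Cacng6 (4.877 TPM), a relative of the muscle channel subunit, were lower than Cacng8 in every mouse. Cacng5 was carried by the 6-month mouse 11 (14.36 TPM, against 6.681 and 6.538 in mice 10 and 17).

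**Figure D4:**
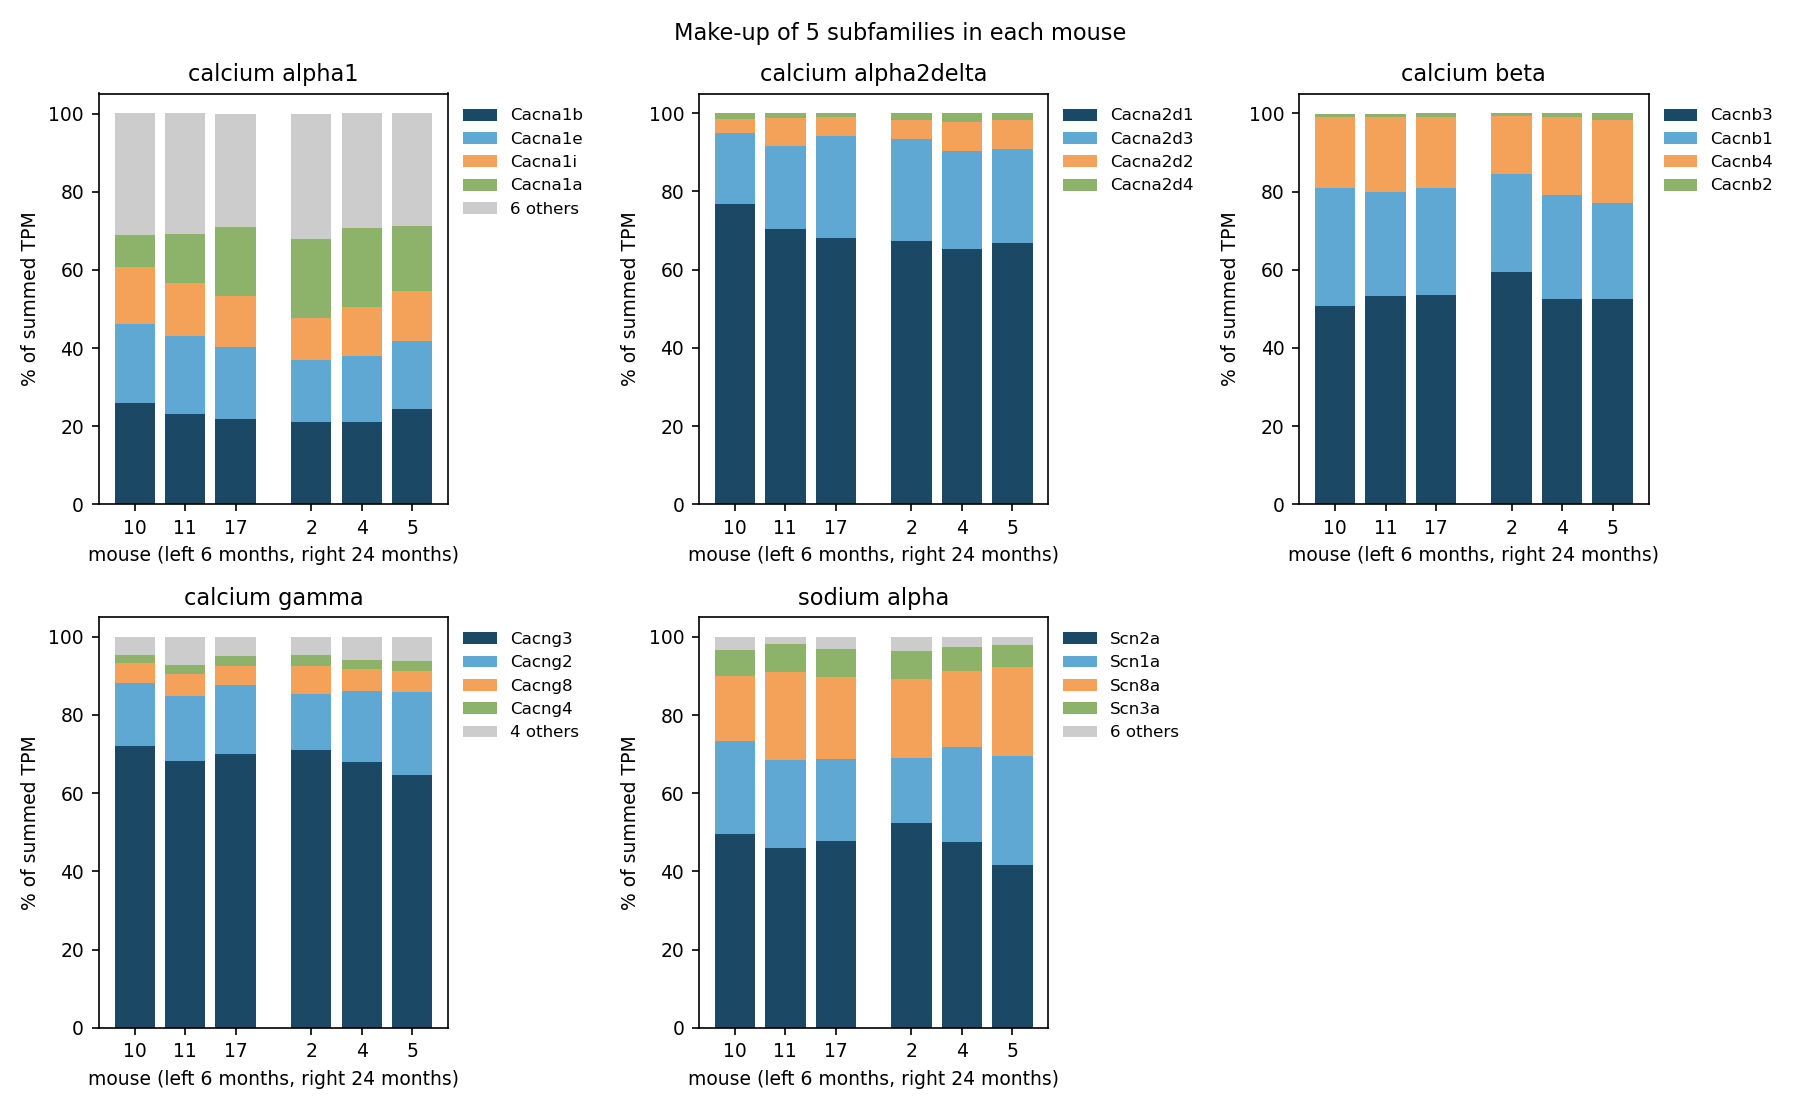
Share of each gene in the summed TPM of its subfamily (%, y axis; 5 subfamilies) in each mouse (x axis, 6-month mice left and 24-month mice right), with the smallest members joined as others. The leading gene of each of these subfamilies was the same in every mouse, and the Cacna1e and Cacna2d1 bands are thinner in every old mouse than in any young one.

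Below 1 CPM, 4 of the 7 subunit genes rose and 0 fell, and all 7 were fitted higher. They are channels of other tissues, Scn4a and Cacna1s of skeletal muscle, Scn11a of peripheral pain neurons and Cacna1f of the retina. Of all 17144 genes under 1 CPM, 17.0% rose by the same test, and of all 32905 genes 10.0% rose and 8.33% fell. Scn4a had 4 counts and Scn11a 6 over the 3 young mice. They reached the 10 counts needed for the test only with those of the old mice, where they are high. Their calls are thus not independent of that filter, which also applied to the genes behind the 17.0%.

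Scn4a had 1, 1 and 2 counts in mice 10, 11 and 17 and 15, 15 and 6 in mice 2, 4 and 5. Ratios of summed CPM for genes under 1 CPM are relative to library totals, without TMM, whereas the test used TMM. For Scn4a the ratio was 9.97 (exact 95% interval for counting error only, 3.57 to 38.5). Its adjusted p was 0.0518 (edgeR's quasi-likelihood test). Scn11a had 1, 3 and 2 counts against 18, 12 and 3, with a ratio of 6.09 (2.52 to 17.8; adjusted p = 0.0785, same test), and its lowest old mouse, mouse 5, equalled the highest young one in counts. Cacna1s had 7, 8 and 7 counts against 26, 21 and 18, a ratio of 3.27 (1.99 to 5.57; adjusted p = 0.0526, same test).

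Cacna1f, with 15, 21 and 19 counts against 38, 26 and 35, gave a ratio of 1.99 (1.42 to 2.82; adjusted p = 0.0911, edgeR's quasi-likelihood test). The pain channel Scn10a (28, 24 and 14 against 32, 34 and 32) and the muscle subunit Cacng1 (2, 2 and 1 against 5, 1 and 1) did not pass. A gene of the same exonic length at the density of the olfactory and vomeronasal receptor genes would have received 3.43, 4.46 and 4.33 counts for Scn4a in the young mice and 18.1, 15.8 and 10.9 in the old, so that Scn4a lay below that level in every mouse. For Scn11a these counts were 2.89 to 3.76 and 9.15 to 15.2, and for Cacna1s 3.19 to 4.15 and 10.1 to 16.8.

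With counts at that density subtracted, 0 of the 37 subunit genes that remained were called in either direction by edgeR's quasi-likelihood test (5 lower and 2 higher at an unadjusted p under 0.05), and over all genes 29 rose and 3 fell. Markers of the tissues where these channels belong did not move alike: 6 skeletal muscle markers summed to 30.49 to 35.54 TPM at 6 months and 30.12 to 32.52 at 24 months, and 6 peripheral sensory markers to 4.493 to 7.179 and 4.027 to 7.381. The 5 markers of heart and vessel muscle had a higher sum in each old mouse (16.31 to 21.64 against 28.02 to 47.09 TPM). Singly, Tnnt2 and Tagln were higher in each old mouse, whereas Acta2, Myh11 and Myh6 overlapped between the ages. For Cacna1s, the antisense gene Gm37759 covers 20.0% of the exons and had 20 counts over all libraries together.

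**Figure D5:**
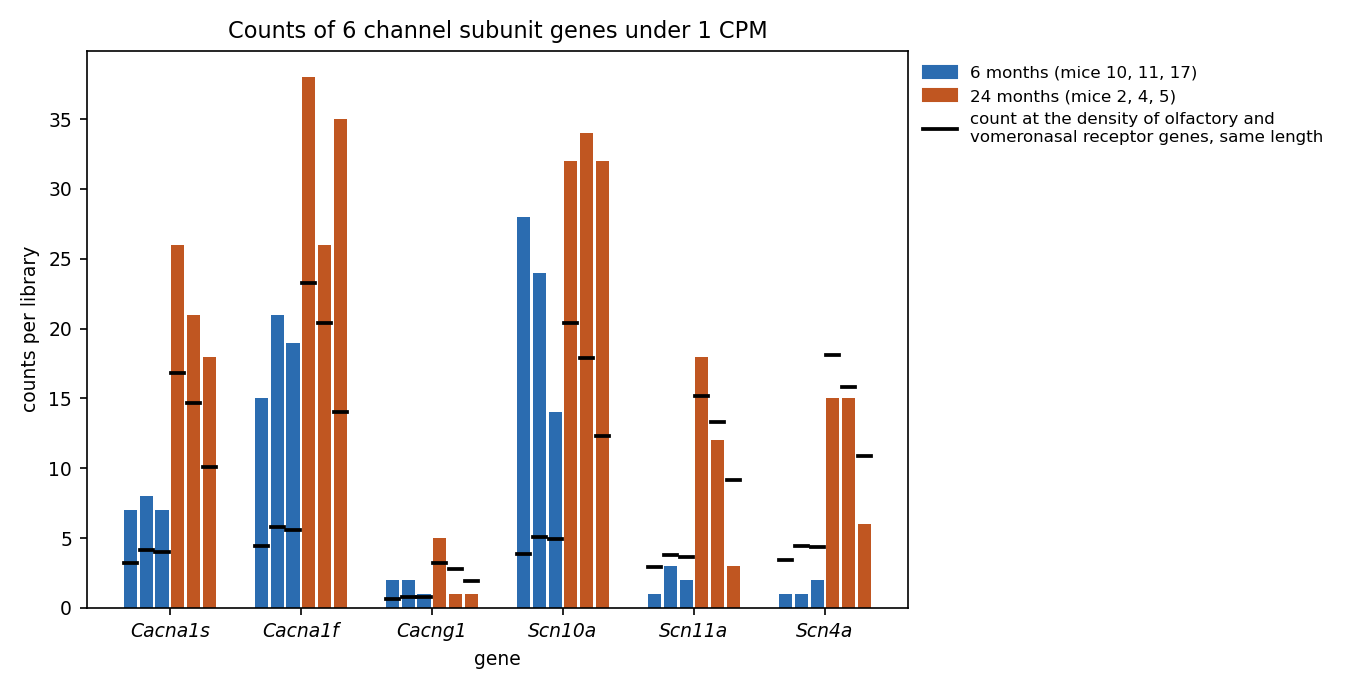
Deposited counts per library (y axis) of 6 subunit genes under 1 CPM, 1 bar per mouse in the order 10, 11, 17 (6 months), 2, 4, 5 (24 months), with a black line for the count that a gene of the same exonic length would have at the density of olfactory and vomeronasal receptor genes in that library. Scn4a lies below its line in every mouse, and the lines are higher in all old mice.

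The proteins that anchor sodium channels were described beside them. Of 10 such partners, 5 fell and 0 rose, with a list median of -0.37, against a median of -0.14 and a share of 17.3% lower over all genes above 1 CPM. Nrcam, a cell adhesion molecule of the axon initial segment, had a log2 fold change of -0.52 (SE 0.12), Nfasc, its neighbour there, -0.42 (SE 0.13), Nedd4l, a ubiquitin ligase that removes channels, -0.39 (SE 0.10), Fgf13, which binds the channel's tail, -0.38 (SE 0.09) and Ank2, an ankyrin of axons, -0.36 (SE 0.13). Ank3, which encodes the ankyrin that holds channels at the initial segment, had -0.20 (SE 0.14) and did not pass, nor did the abundant Fgf14 with -0.18 (SE 0.14).

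Nrcam had 150.9, 161.4 and 134.7 TPM in the young mice and 98.82, 110.2 and 128.7 TPM in the old mice, without overlap. Nfasc had 41.27, 41.31 and 39.22 TPM against 27.42, 30.69 and 40.26, so that mouse 5 reached the young mice. Mouse 5 was the highest old mouse for both, as it was for Scn2a and Scn3a.

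Of 14 calcium channel partners, 1 fell and 0 rose, with a median of -0.14. Of all genes tested, 8.33% fell and 10.0% rose, and of those above 1 CPM, 17.3% fell and 2.43% rose. The partner that fell was Calm2, 1 of the calmodulin genes, with a log2 fold change of -0.29 (SE 0.09). Calm3, which encodes the same protein, had -0.12 (SE 0.09). Of 18 other calcium and sodium channel genes, several of them under 1 TPM, 1 fell and 1 rose against the same shares. Nalcn, the sodium leak channel, fell (-0.45, SE 0.15), and Scnn1g, an epithelial sodium channel subunit at a mean of 0.29 TPM, rose (1.32, SE 0.44). The abundant Itpr1, the calcium release channel of the endoplasmic reticulum, had -0.09 (SE 0.18).

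Of the other marker lists, 0 of 6 interneuron, 0 of 6 oligodendrocyte, 0 of 5 endothelial and 0 of 5 choroid plexus markers were called, as were 0 of 6 skeletal muscle and 0 of 6 peripheral sensory markers (edgeR's quasi-likelihood test). At an unadjusted p under 0.05 these lists held 0, 0, 0, 1, 2 and 1 genes in the same order, against 30.7% of all genes tested. Single markers were called in the lists of oligodendrocyte precursors (Gpr17, lower), microglia (Tmem119, higher, and Csf1r, lower), astrocytes (Gfap, higher) and heart and vessel muscle (Tnnt2, higher).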

How the data were processed

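RNA-seq of the cortex was analysed in 6 mice. The authors trimmed reads (Trim Galore 0.6.4), mapped them to GRCm38 with STAR 2.7.3a, and counted them on exons with featureCounts (Subread 2.0.0). They deposited a raw count and a TPM value (count and exonic length) per gene and mouse. The stated options split multi-mapping reads, yet all deposited counts were whole.

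Counts were tested with edgeR 4.0.16 (R 4.3.3): TMM, at least 10 counts over the 6 libraries, quasi-likelihood test, Benjamini-Hochberg adjustment over all genes. The study used edgeR at 1% FDR and names no test within it, so 10% was used to call. The test was checked on simulated counts. Alternatives used DESeq2 1.42.0 and limma 3.58.1. P-values measure the spread between separate animals. No batch was given in the labels. The members, gene lists, marker lists and threshold were chosen with earlier results of these data known. Named genes are the called members, the 3 of highest mean TPM per subfamily, members under 1 CPM by counts, and called or abundant partners. Some genes that this rule names are not reported here. The totals of 29495379 to 36494240 counts leave genes under 1 CPM with few counts, and intervals cover counting error only. Coordinates are those of GENCODE vM21, in which all 40 members were found.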

Additional observations from a re-analysis of the deposited data

How the results depend on the processing

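No paired analysis was possible because the ages share no mouse numbers. With library totals or TMM factors from genes above 1 CPM, 3 subunit genes were lower (against 5), as with edgeR's filterByExpr. With limma on log2(TPM + 1) or log2(TPM + 0.1), counts at the receptor gene density subtracted, or 5% FDR, 0 were lower and 0 higher. filterByExpr left 1 higher (against 4). Leaving out 1 mouse gave 0 to 9 lower and 0 to 4 higher genes. Over all genes, filterByExpr called 1108 higher and 430 lower, DESeq2 1340 and 1708, the likelihood ratio test 5302 and 2196, and limma on log2(TPM + 1) 20 and 4. The cause of these differences was not tested, except that 5% FDR is a stricter threshold.

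The calcium α1 median was 0.17 with library totals. The calcium β median was -0.02 with library totals, -0.06 with TMM factors from genes above 1 CPM, -0.10 with filterByExpr, -0.11 in both limma fits and -0.07 with those counts subtracted.

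No called gene changed sign. Signs that changed among genes not called were those of Cacna1e (0.02), Cacna1b (0.16), Cacna2d2 (0.15), Cacnb3 (0.01) and Cacng2 (0.07) with library totals, and of Cacna1b (0.12), Cacna2d2 (0.12) and Cacng2 (0.04) with TMM factors from genes above 1 CPM. Cacna1b and Cacna2d2 also did so with filterByExpr (0.08 and 0.08), with no filter beyond 1 count (0.00 and 0.01), in limma on log2(TPM + 1) (0.07 and 0.08) and log2(TPM + 0.1) (0.08 and 0.09), and with those counts subtracted (0.10 and 0.07), where Cacng2 had 0.02. With 1 mouse left out in turn, Cacna1b lay between -0.09 and 0.08, Cacna2d2 between -0.26 and 0.28, Cacna2d3 between -0.34 and 0.02 and Cacng8 between -0.20 and 0.13. Depth limits the 7 genes under 1 CPM, whose differences rest on 1 to 42 counts per library.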
